A study of Mus musculus with 6 samples.

Results

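The genes described here encode subunits and partners of Polycomb repressive complex PRC2, whose catalytic subunit EZH2 is the target of the inhibitor ZLD1039. The 10 genes were chosen by identifier, with earlier results of these data known: EZH2, EZH1, EED, SUZ12, RBBP4, RBBP7, JARID2, MTF2, PHF19 and AEBP2. Each matched 1 locus of the 15234 loci listed across the study, and each was listed in all 6 tumours. The tumours were grown under the skin of BALB/c nude mice, which lack T cells. The graft was A375, a cultured line of human melanoma cells labelled WT for genotype. One group received 100 mg/kg of ZLD1039 by daily gavage and the other received vehicle in the same way. Both were taken at day 27. The labels put 5 mice in each group and 3 tumours of each were sequenced, so the comparison is 3 ZLD1039 tumours against 3 vehicle tumours of 1 cell line. The age and sex of the mice are not given. Whether every tumour had its own mouse is not stated outright, and the p-values then reflect only how these tumours vary.

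PRC2 places methyl groups on lysine 27 of histone H3, a mark that keeps developmental genes silent. EZH2, or its paralog EZH1, carries the catalytic SET domain and needs EED and SUZ12 to be active, while the histone-binding proteins RBBP4 and RBBP7 complete the core. Accessory proteins join the core in alternative sets: the Polycomb-like proteins MTF2 and PHF19 in one, JARID2 and AEBP2 in the other. In melanoma EZH2 is known as a gene that is often highly expressed, and EZH2 inhibitors block the enzyme rather than its messenger RNA.

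RNA abundance was given as FPKM (fragments scaled by transcript length and library size) for each transcript event: start sites, end sites, exons with and without skipping, introns retained and spliced, and alternative exon ends. The value of a locus was the highest of 3 quantities, namely all starts added up, all ends added up and the single most abundant event. It is a lower bound of the gene's abundance. Because FPKM holds no fragment numbers, counting error is not known. The tumours listed 117347 to 126622 events each. ZLD1039 tumour 2 stood apart, with a mean correlation of 0.919 with the other tumours over the loci tested, against 0.934 to 0.943 for the other 5. Values are placed on human chromosomes, and reads of the mouse host that align to the human genes cannot be told apart from those of the graft. SUZ12 and RBBP4 also have near-identical copies elsewhere in the human genome, and how the authors assigned shared reads is not given in the sources used here.

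None of the 10 PRC2 genes passed the test for a change in locus abundance. EZH2, the drug's target, was 1.23-fold higher in ZLD1039 tumours by the ratio of group means, with no overlap between the groups. RBBP4 was 1.90-fold and MTF2 1.27-fold higher, also without overlap. Limma on log2(FPKM + 1), with Benjamini-Hochberg adjustment over all loci, called 0 of the 10 genes (smallest adjusted p = 0.881), and 1 of them, RBBP4, had an unadjusted p under 0.05. Over all 10834 loci tested, 0.0185% were called and 4.94% had an unadjusted p under 0.05. Groups lay apart for 3 of the 10 genes, all higher under ZLD1039, while 10.9% of all loci lay apart, 5.75% higher and 5.2% lower. The log2 difference was above 0 for 8 of the 10 genes and for 52.8% of all loci. Its median was 0.25 over the 10 genes and 0.02 over all loci.

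**Figure D1:**
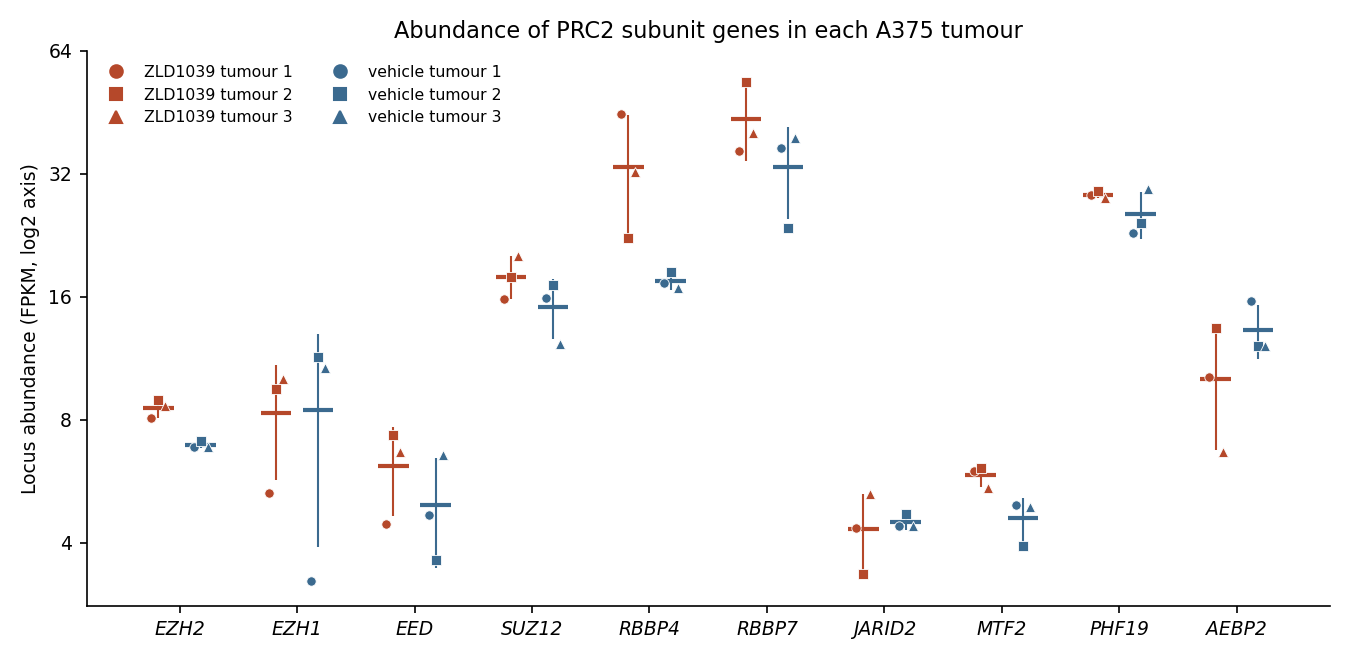
Locus abundance in FPKM on a log2 axis for each PRC2 gene, with ZLD1039 tumours in red and vehicle tumours in blue. Symbols are single tumours, thick bars group means and thin lines 1 SD on either side (n = 3 per group). EZH2, RBBP4 and MTF2 show no overlap, and EZH1 spans 3.23 to 11.4 FPKM within the vehicle group alone.

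EZH2 (ENSG00000106462, chromosome 7, 148512006 to 148581375, minus strand) stood at 8.07, 8.96 and 8.63 FPKM in the ZLD1039 tumours, against 6.88, 7.09 and 6.85 FPKM in the vehicle tumours. Every ZLD1039 tumour lay above every vehicle tumour, and the vehicle values lay close together. The means were 8.55 ± 0.45 and 6.94 ± 0.13 FPKM (SD, n = 3 each). The log2 difference was 0.27 with a standard error of 0.15 and a 95% interval of -0.07 to 0.61 (limma, adjusted p = 0.881). An exact two-sided permutation test on the log2 values gave p = 0.1, the smallest that 3 tumours against 3 allow. With any 1 tumour left out the log2 difference stayed between 0.23 and 0.30, and without ZLD1039 tumour 2 it was 0.23. In bulk tumours more cells with EZH2 RNA and more EZH2 RNA per cell cannot be told apart, for this gene and for those that follow.

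The higher EZH2 value was seen in part of its events. Of 12 EZH2 events tested, 6 had groups without overlap, all higher in ZLD1039 tumours, and none was called (limma). Over all events tested, 10.3% lay apart, and 5.36% lay apart with higher values under ZLD1039. The 6 EZH2 events are overlapping parts of the same transcripts and not separate evidence. The exon form of 41 bases at 148512598 to 148512638, the EZH2 event with the smallest p, stood at 7.48, 8.95 and 8.62 FPKM under ZLD1039, against 6.87, 6.05 and 6.81 FPKM under vehicle (limma, adjusted p = 0.855). A start event at 148581256 to 148581375 carried all of the EZH2 start abundance in 5 of the 6 tumours. In ZLD1039 tumour 3 it carried 68.6%, and starts at 148547546 to 148547609 and at 148567896 to 148567973 held 18.8% and 12.7% there. Those additional starts were listed in no other tumour. The files list no end event for EZH2.

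Most EZH2 transcripts contained the 117-base exon at 148529726 to 148529842. It was included at 98.7, 92.7 and 78.8% in ZLD1039 tumours, against 97.8, 99.9 and 98.7% in vehicle tumours. The groups overlapped, and ZLD1039 tumour 3, the one with the extra starts, was lowest. The difference was -8.74 percentage points with a standard error of 5.30 and a 95% interval of -21.5 to 4.05 (limma, adjusted p = 0.719). A 179-base exon at 148533914 to 148534092 was almost always left out, and only ZLD1039 tumour 1 included it above 1%, at 10.4%. A 126-base exon at 148512006 to 148512131 was included at 98.5, 99.3 and 97.6% under ZLD1039, against 100% in all 3 vehicle tumours. Under ZLD1039 the form without it was listed at 0.125, 0.066 and 0.208 FPKM, and under vehicle it was unlisted. Those values lie below the minimum of 1 FPKM and were not tested, and an unlisted event need not be absent. Inclusion of the 126-base exon was not tested either, because its mean share lay above 99%.

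EZH1 (ENSG00000108799, chromosome 17, 40854979 to 40897071, minus strand), the paralog of EZH2 with weaker methyltransferase activity, varied more between tumours of 1 group than between groups. It stood at 5.29, 9.54 and 10.0 FPKM in ZLD1039 tumours, against 3.23, 11.4 and 10.7 FPKM in vehicle tumours. The groups overlapped fully, with ZLD1039 tumour 1 and vehicle tumour 1 low and the other 4 high. The log2 difference was 0.08 with a 95% interval of -0.91 to 1.08 (limma, adjusted p = 0.98), and it fell below 0 when ZLD1039 tumour 2 or 3 or vehicle tumour 1 was left out. EZH1 per EZH2 was 0.656, 1.06 and 1.16 in ZLD1039 tumours and 0.470, 1.61 and 1.56 in vehicle tumours. Neither catalytic gene was the more abundant one in all tumours: EZH1 lay above EZH2 in 4 of the 6.

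The forms of EZH1 differed from tumour to tumour. An intron at 40854979 to 40855758 was retained at 79.8% in ZLD1039 tumour 2 and was not listed as retained in ZLD1039 tumours 1 and 3, against 59.1, 74.6 and 72.6% in vehicle tumours. Transcripts that retained it stood at 6.29 FPKM in ZLD1039 tumour 2, against 3.01, 6.34 and 5.61 FPKM in vehicle tumours. Retention was thus listed in 1 of 3 ZLD1039 and 3 of 3 vehicle tumours, and the difference of -42.1 percentage points had a 95% interval of -109 to 24.9 (limma, adjusted p = 0.719). The start at 40871123 to 40871196 held 23.8, 89.3 and 0% of the start abundance under ZLD1039, against 95.5, 82.6 and 19.8% under vehicle. It led in 3 of the 6 tumours, 1 with ZLD1039 and 2 with vehicle. The start furthest upstream, at 40897029 to 40897071, was listed only in ZLD1039 tumour 3, at 7.17 FPKM. A 91-base exon at 40882846 to 40882936 was likewise listed there only, at 7.15 FPKM. A run of EZH1 exons between 40869994 and 40871225 was included at 29.3, 0 and 71.4% under ZLD1039, against 100, 0 and 0% under vehicle (limma, adjusted p = 1.00). A value of 0% for the run does not mean that each of its exons was skipped. The 103-base exon at 40871123 to 40871225, inside the run, was included at 95.1% in ZLD1039 tumour 2. In vehicle tumours 2 and 3 it was included at 97.9 and 96.1%. The leading end, at 40857601 to 40858203, stood at 0.050, 0.067 and 0.066 FPKM under ZLD1039 and at 0.070, 0.105 and 0.083 FPKM under vehicle. These values lie below the minimum for the test, far under the EZH1 starts.

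**Figure D2:**
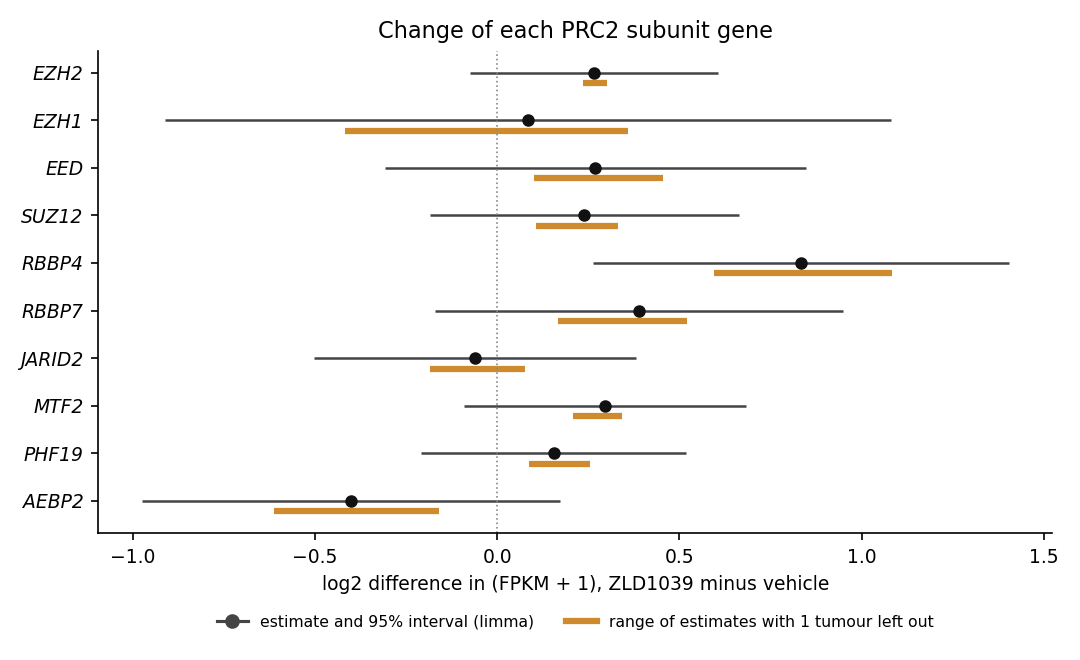
Log2 difference of each PRC2 gene, ZLD1039 minus vehicle, on the scale of log2(FPKM + 1). Black points and lines are limma estimates with 95% intervals (n = 3 per group), and orange bars span the estimates with 1 tumour left out. The RBBP4 interval alone lies off 0 (0.26 to 1.41), but its p does not pass adjustment over all loci.

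EED (ENSG00000074266, chromosome 11, 85955586 to 85989778, plus strand), which binds the methyl mark and stimulates the enzyme, did not pass the test. It stood at 4.45, 7.33 and 6.68 FPKM in ZLD1039 tumours, against 4.68, 3.63 and 6.57 FPKM in vehicle tumours. The groups overlapped, and the log2 difference was 0.27 with a 95% interval of -0.31 to 0.85 (limma, adjusted p = 0.885). Single tumours moved it: 0.15 without ZLD1039 tumour 2, 0.45 without ZLD1039 tumour 1, 0.10 without vehicle tumour 2 and 0.46 without vehicle tumour 3. Its single end event, at 85989441 to 85989778, was apart: 3.82, 6.18 and 3.83 FPKM under ZLD1039, against 1.55, 3.28 and 2.67 FPKM under vehicle. On the log2 scale that end was higher by 0.69 (standard error 0.31; limma, unadjusted p = 0.064, adjusted p = 0.855). The spliced form of the intron at 85988180 to 85988960, the EED event with the smallest p, had nearly the same values. Where the locus value was taken from the end alone, the log2 difference of EED was therefore 0.69 instead of 0.27. Another spliced form of the intron at 85988180 to 85988960 stood at 2.62 FPKM in vehicle tumour 3 and at 0.059 FPKM or less in the other tumours. The exon form at 85988022 to 85988180 overlapped between the groups. It stood at 3.85, 6.22 and 3.84 FPKM under ZLD1039, against 1.61, 3.31 and 5.29 FPKM under vehicle. The start at 85955586 to 85956385 led in all 6 tumours, with 66.8, 76.8 and 78.4% of the start abundance under ZLD1039 against 48.9, 71.1 and 67.7% under vehicle.

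A run of EED exons between 85977125 and 85979603 was the only tested exon or intron of the 10 genes with groups apart. It was included at 96.6, 86.8 and 95.3% in ZLD1039 tumours, against 76.7, 83.1 and 86.1% in vehicle tumours. The difference was 10.95 percentage points with a standard error of 5.50 and a 95% interval of -2.32 to 24.2 (limma, adjusted p = 0.719). Over all exons and introns tested, 7.11% had groups apart, and 1 of the 12 tested in PRC2 genes did.

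SUZ12 (ENSG00000178691, chromosome 17, 30264037 to 30328064, plus strand), the scaffold that holds the complex together, was the fourth of the 10 genes by locus value in every tumour. It stood at 15.8, 17.9 and 20.1 FPKM in ZLD1039 tumours, against 15.9, 17.1 and 12.3 FPKM in vehicle tumours. The groups overlapped, and the log2 difference was 0.24 with a 95% interval of -0.19 to 0.66 (limma, adjusted p = 0.881). Without ZLD1039 tumour 3 it was 0.16, and without vehicle tumour 3 it was 0.11. Starts were uniform: the site at 30264037 to 30264539 held 97.9 to 99.3% in every tumour. The only SUZ12 end, at 30325677 to 30328064, set the locus value in every tumour.

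The 69-base exon of SUZ12 at 30274636 to 30274704 varied widely under ZLD1039. It was included at 61.9, 39.3 and 82.4% in ZLD1039 tumours, against 83.9, 79.2 and 71.9% in vehicle tumours. ZLD1039 tumours 1 and 2 lay below all vehicle tumours, and ZLD1039 tumour 3 lay among them. The difference was -17.1 percentage points with a standard error of 16.04 and a 95% interval of -55.8 to 21.6 (limma, adjusted p = 0.719). In abundance the transcripts that skip the exon did not overlap, at 5.97, 10.7 and 3.50 FPKM under ZLD1039 against 2.54, 3.23 and 3.43 FPKM under vehicle. Their log2 difference was 0.82 (standard error 0.37; limma, unadjusted p = 0.066, adjusted p = 0.855). The gap between the groups there was small, 3.50 FPKM in ZLD1039 tumour 3 next to 3.43 FPKM in vehicle tumour 3. Transcripts with the exon stood at 9.69, 6.90 and 16.4 FPKM under ZLD1039 and at 13.2, 12.3 and 8.76 FPKM under vehicle, with overlap.

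RBBP4 (ENSG00000162521, chromosome 1, 33116743 to 33148088, plus strand), a histone-binding protein shared with other chromatin complexes, had the largest difference of the 10 genes. It stood at 44.9, 22.3 and 32.4 FPKM in ZLD1039 tumours, against 17.3, 18.4 and 16.8 FPKM in vehicle tumours. The ZLD1039 tumours lay above all vehicle tumours but differed widely among themselves, with an SD of 11.3 against 0.84 FPKM. The log2 difference was 0.83 with a standard error of 0.25 and a 95% interval of 0.26 to 1.41 (limma, unadjusted p = 0.0099, adjusted p = 0.881). Of all loci tested, 0.803% had a smaller p. Without ZLD1039 tumour 1 the log2 difference was 0.59, and without ZLD1039 tumour 2 it was 1.08.

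In ZLD1039 tumours 1 and 3, the highest in RBBP4, most of the start abundance lay at sites that no other tumour listed. In ZLD1039 tumour 1 a start at 33116957 to 33117033 held 79.5% of the start abundance, and in ZLD1039 tumour 3 a start at 33116743 to 33117255 held 55.7%. Vehicle tumour 3 likewise had a start of its own, at 33117086 to 33117423, with 30.2%. The start at 33116743 to 33116923 was listed in all tumours and did not separate the groups: 9.12, 22.2 and 14.2 FPKM under ZLD1039, against 17.2, 18.3 and 11.6 FPKM under vehicle. These starts overlap or adjoin within the first exon region, so the split between them is less certain than their sum. The leading end, at 33145241 to 33145509, stood at 44.6, 21.9 and 16.2 FPKM under ZLD1039, against 16.8, 18.2 and 16.5 FPKM under vehicle. There ZLD1039 tumour 3 lay below all vehicle tumours, and with ends alone as locus value the log2 difference was 0.54. ZLD1039 tumour 3 alone also listed a longer exon form from the same position, 33145241 to 33148088, at 3.09 FPKM. That form has no end event of its own, so the summed ends leave it out. The 146-base exon at 33123028 to 33123173, upstream of the leading end, stood at 44.6, 21.9 and 31.8 FPKM under ZLD1039, against 16.8, 18.2 and 16.5 FPKM under vehicle, without overlap (limma, unadjusted p = 0.017, adjusted p = 0.855). The spliced form that skips the 92-base exon at 33127847 to 33127938 had the same values.

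RBBP7 (ENSG00000102054, chromosome X, 16857406 to 16888537, minus strand), the close paralog of RBBP4, was the most abundant of the 10 genes on average. It stood at 36.5, 53.6 and 40.3 FPKM in ZLD1039 tumours, against 37.0, 23.6 and 39.2 FPKM in vehicle tumours. The groups overlapped, with ZLD1039 tumour 2 highest and vehicle tumour 2 lowest, and the log2 difference was 0.39 with a 95% interval of -0.17 to 0.95 (limma, adjusted p = 0.881). It was 0.17 without vehicle tumour 2 and 0.23 without ZLD1039 tumour 2. RBBP7 per RBBP4 was 0.812, 2.40 and 1.24 in ZLD1039 tumours and 2.14, 1.28 and 2.34 in vehicle tumours. RBBP4 exceeded RBBP7 in ZLD1039 tumour 1 only.

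RBBP7 used 1 start almost alone and several ends. The start at 16888161 to 16888537 held 97.9 to 100.0% in all tumours, and its abundance gave the smallest p of the RBBP7 events (limma, adjusted p = 0.855). The end at 16862773 to 16863226 led in all 6 tumours, with 94.7, 93.2 and 83.8% under ZLD1039 against 87.5, 84.6 and 74.3% under vehicle, a difference of 8.43 percentage points with a 95% interval of -4.00 to 20.9 (limma, adjusted p = 0.774). Vehicle tumour 3 ended 21.8% at 16863994 to 16864061, where the other 5 tumours ended 0.675 to 1.87%. An intron at 16870998 to 16871805 was listed as retained only in vehicle tumour 2, at 12.4%. An exon form longer by 27 bases at its upstream side, 16876799 to 16876972, took 44.9, 23.6 and 28.1% of that exon under ZLD1039 and 38.9, 10.0 and 23.3% under vehicle, with overlap.

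**Figure D3:**
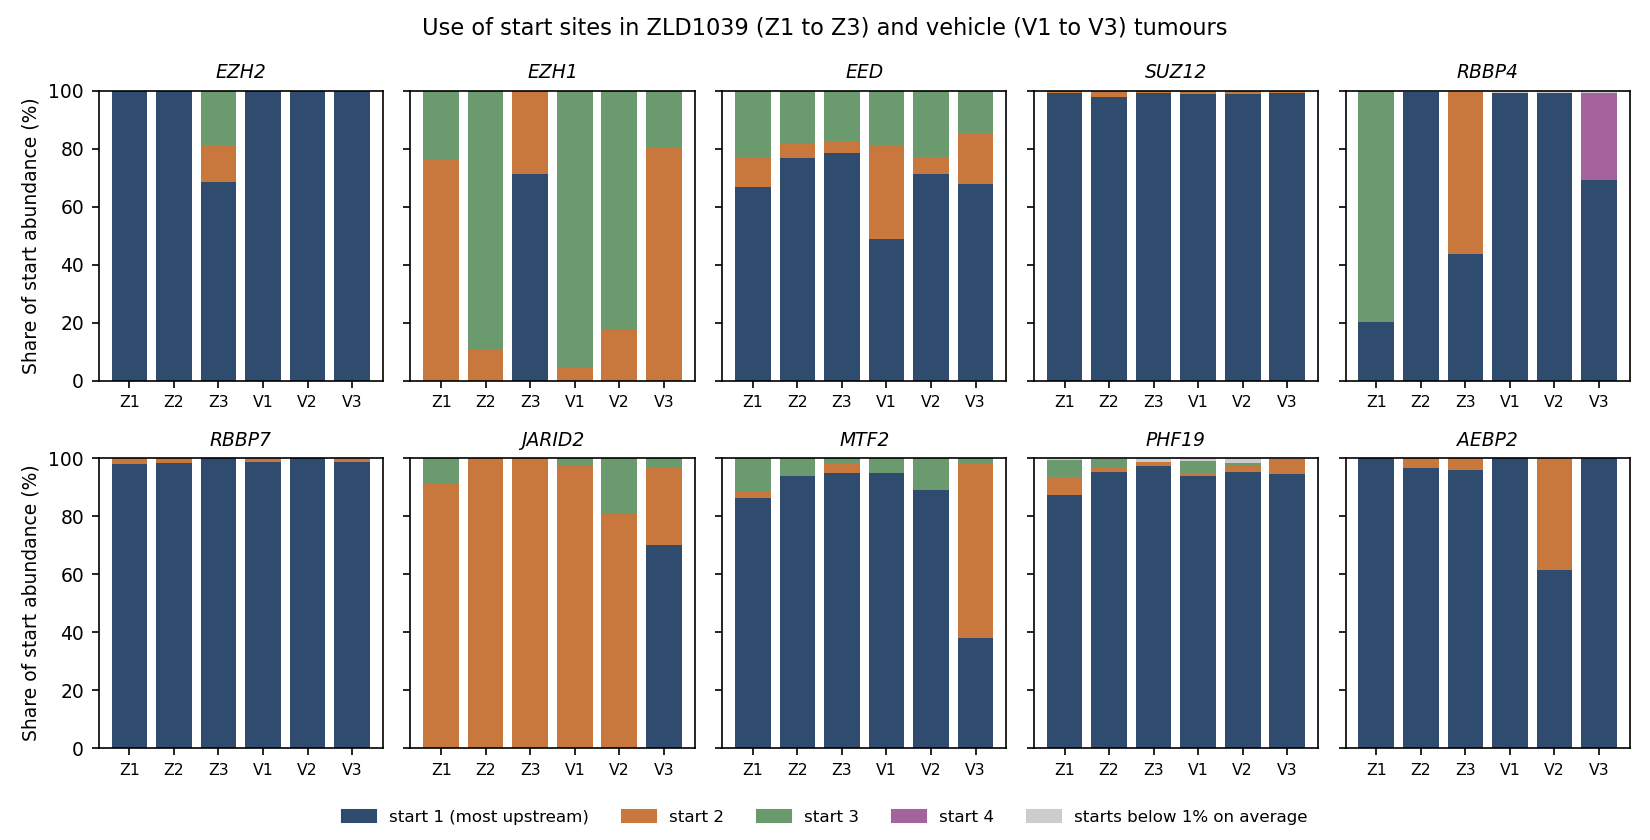
Share of each start site in the summed start abundance of its gene, in percent, for ZLD1039 tumours (Z1 to Z3) and vehicle tumours (V1 to V3). Colours number the starts above 1% on average from upstream to downstream within each gene, and the rest are grey. SUZ12, RBBP7 and PHF19 kept 1 start above 87% in every tumour, whereas EZH1, RBBP4, JARID2 and MTF2 changed their leading start between tumours.

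MTF2 (ENSG00000143033, chromosome 1, 93544792 to 93604636, plus strand), a Polycomb-like protein that brings PRC2 to CpG islands, stood at 5.996, 6.10 and 5.44 FPKM in ZLD1039 tumours, against 4.94, 3.94 and 4.90 FPKM in vehicle tumours. The groups did not overlap. The log2 difference was 0.30 with a standard error of 0.17 and a 95% interval of -0.09 to 0.68 (limma, adjusted p = 0.881), and 0.21 to 0.34 with 1 tumour left out. It was 0.51 with summed starts and 0.16 with the end alone as locus value. The exact two-sided permutation p was 0.1, as for EZH2 and RBBP4.

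The most upstream start of MTF2, at 93544792 to 93545088, stood at 4.73, 5.72 and 4.92 FPKM under ZLD1039, against 3.95, 2.18 and 1.71 FPKM under vehicle. The log2 difference of this start was 0.81 with a standard error of 0.29 (limma, unadjusted p = 0.030, adjusted p = 0.855). Vehicle tumour 3 was lowest there, and 60.3% of its start abundance lay at 93575803 to 93575985, where the other tumours had at most 3.40%. As a share, the upstream start held 86.2, 93.7 and 94.8% under ZLD1039 and 94.7, 89.1 and 37.8% under vehicle, with overlap. The end at 93602227 to 93604636 overlapped as well, at 5.996, 4.78 and 5.02 FPKM under ZLD1039 against 4.94, 3.94 and 4.90 FPKM under vehicle. A 171-base exon at 93594835 to 93595005 was included fully in 4 tumours, at 90.5% in ZLD1039 tumour 3 and at 86.9% in vehicle tumour 3.

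PHF19 (ENSG00000119403, chromosome 9, 123617642 to 123639606, minus strand), the second Polycomb-like protein, stood at 28.4, 29.0 and 27.9 FPKM in ZLD1039 tumours, against 23.0, 24.3 and 29.3 FPKM in vehicle tumours. The ZLD1039 values lay close together and below vehicle tumour 3. The log2 difference was 0.16 with a 95% interval of -0.21 to 0.52 (limma, adjusted p = 0.887). It was 0.086 without vehicle tumour 1, 0.26 without vehicle tumour 3 and 0.078 with the end alone as locus value. The start at 123639369 to 123639606 led in all tumours with 87.2 to 97.1%, and its abundance gave the smallest p of the PHF19 events (limma, adjusted p = 0.875). The listed end at 123617642 to 123620564 stood at 8.20 to 13.4 FPKM, below the summed starts in every tumour. An 88-base exon at 123624196 to 123624283 was included at 91.7, 95.1 and 97.9% under ZLD1039 and at 92.5, 98.7 and 99.2% under vehicle, with overlap.

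JARID2 (ENSG00000008083, chromosome 6, 15245806 to 15522252, plus strand), a DNA-binding cofactor related to histone demethylases but without their activity, was the least abundant of the 10 on average. It stood at 4.35, 3.37 and 5.26 FPKM in ZLD1039 tumours, against 4.39, 4.71 and 4.39 FPKM in vehicle tumours. The ZLD1039 values lay on both sides of the vehicle values, and the log2 difference was -0.06 with a 95% interval of -0.50 to 0.38 (limma, adjusted p = 0.960). It was above 0, at 0.075, without ZLD1039 tumour 2. A 142-base exon at 15410455 to 15410596 was included at 38.7% in ZLD1039 tumour 2, against 100% in ZLD1039 tumour 1 and 89.6% in ZLD1039 tumour 3, and at 100, 75.9 and 100% in vehicle tumours (limma, adjusted p = 0.724). The start at 15246527 to 15246815 led in 5 tumours. In vehicle tumour 3 another start, at 15245806 to 15245838, listed only there, held 70.2%. The only JARID2 end, at 15520300 to 15522252, stood at 4.35, 3.37 and 4.71 FPKM under ZLD1039 and at 4.39, 4.71 and 4.39 FPKM under vehicle, with overlap.

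AEBP2 (ENSG00000139154, chromosome 12, 19592608 to 19706173, plus strand), a zinc finger protein that stabilises the complex, had the only other negative difference. It stood at 10.2, 13.4 and 6.69 FPKM in ZLD1039 tumours, against 15.6, 12.1 and 12.1 FPKM in vehicle tumours. The groups overlapped, and the log2 difference was -0.40 with a 95% interval of -0.98 to 0.17 (limma, adjusted p = 0.881). Leaving out ZLD1039 tumour 3 gave -0.16 and leaving out ZLD1039 tumour 2 gave -0.61. The sign turned with the end alone as locus value, where the log2 difference was 0.56. That end, at 19705787 to 19706173, stood at 2.83, 0.791 and 3.19 FPKM under ZLD1039 and at 0.562, 3.04 and 0.410 FPKM under vehicle. It carried a smaller part of the abundance than the start at 19592608 to 19593304, which led in all tumours with 61.4 to 100.0%.

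FPKM is scaled by length, so levels can be set side by side within a tumour, but locus values are lower bounds and their order depends on the form of the locus value. By the mean over the 6 tumours the order was RBBP7 at 38.4 FPKM, PHF19 at 27.0, RBBP4 at 25.4, SUZ12 at 16.5, AEBP2 at 11.7, EZH1 at 8.37, EZH2 at 7.75, EED at 5.56, MTF2 at 5.22 and JARID2 at 4.41. The ranges over the tumours overlapped for all 9 pairs of neighbours in this order. Within single tumours, however, RBBP4 lay above SUZ12, SUZ12 above AEBP2 and EZH2 above EED in 6 of 6 tumours, whereas EED lay above MTF2 in 3 of 6. By ends alone PHF19 lay below SUZ12 in every tumour, at 9.24, 13.4 and 11.1 FPKM under ZLD1039 and 12.2, 11.5 and 8.20 FPKM under vehicle. RBBP4 by ends lay below SUZ12 in ZLD1039 tumour 3, at 16.5 against 20.1 FPKM. EZH2 was thus listed at a lower level than its scaffold SUZ12 in every tumour, and 48.9% of all loci tested had a lower mean than EZH2.

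The balance of accessory genes was compared within each tumour. PHF19 per MTF2 was 4.73, 4.75 and 5.13 in ZLD1039 tumours and 4.65, 6.18 and 5.99 in vehicle tumours, with overlap. JARID2 per AEBP2 was 0.427, 0.251 and 0.786 in ZLD1039 tumours and 0.282, 0.388 and 0.363 in vehicle tumours, also with overlap. The sum of MTF2 and PHF19 over the sum of JARID2 and AEBP2 was 2.36, 2.09 and 2.79 in ZLD1039 tumours, against 1.40, 1.68 and 2.08 in vehicle tumours. The lowest ZLD1039 tumour and the highest vehicle tumour nearly met, with means of 2.42 ± 0.35 and 1.72 ± 0.34 (SD, n = 3 each). No test was made of these ratios. With 1 tumour left out the difference in the log2 ratio of EZH1 to EZH2 ran from -0.76 to 0.12, against -0.18 with all 6, and that of JARID2 to AEBP2 from -0.06 to 0.76, against 0.36. For RBBP7 to RBBP4 it ran from -0.89 to -0.10, against -0.47. For MTF2 and PHF19 over JARID2 and AEBP2 it ran from 0.36 to 0.65, against 0.50 with all 6. With the largest event as locus value that last difference was 0.35. None of the ratios was computed from ends alone. By ends the log2 difference of AEBP2 was 0.56, against -0.40 in the main form. Whether the groups lie apart in that last ratio by ends was therefore not shown.

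The genes did not share 1 pattern over the tumours. Likeness to EZH2 was measured as the root mean square difference between deviations of log2(FPKM + 1) from each gene's own mean over the 6 tumours. MTF2 was nearest among the other 9 genes, at 0.12, followed by PHF19 at 0.13 and SUZ12 at 0.15, while EZH1 was furthest at 0.55. The median over all loci tested was 0.29, and EZH2 itself deviated from its mean by 0.14. The nearest loci of all, ENSG00000111144 and ENSG00000125703, both lay at 0.04, and MTF2 ranked 469 among the loci tested. The measure is a description over 6 tumours and favours loci that vary as little as EZH2.

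No transcript event of the 10 genes passed the test. They had 192 listed events, of which 106 were listed in all 6 tumours and 99 reached a mean of 1 FPKM in a group. Limma called 0 of these 99 (smallest adjusted p = 0.855), where 0.0362% of all 82894 events were called. An unadjusted p under 0.05 was found for 5, against 4.7% of all events: 3 RBBP4 events with the same values and 2 MTF2 events. Groups lay apart for 20 of the 99, all higher under ZLD1039, where 10.3% of all events lay apart and 5.36% of all events did so in that direction. These 20 came from 5 genes (EZH2, EED, SUZ12, RBBP4 and MTF2) and held 14 distinct sets of values, so they are not independent. Of the 192 events, 29 were listed in ZLD1039 tumours only and 4 in vehicle tumours only, and 32 were listed in a single tumour. EZH1 gave 15 of the 29, and each of these was listed in ZLD1039 tumour 3 alone. The share of all events listed in 1 group only was not computed. Without it these counts cannot tell whether the PRC2 genes differ from other genes, and no conclusion is drawn from them.

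Start, end and exon use gave no call either. Limma called 0 of 12 exons, runs and introns, 0 of 28 start sites and 0 of 4 end sites in the 10 genes, with smallest adjusted p-values of 0.719, 0.764 and 0.774. Groups lay apart for none of the start and end sites, against 8.07% of all start sites and 8.05% of all end sites. No exon, intron or site of the 10 genes had an unadjusted p under 0.05, where 2.09% of all exons and introns, 2.49% of all start sites and 2.86% of all end sites did. Called features made up 0% of all features in each of these tests. The 12 exons and introns lay in 8 genes and were those, out of 55 listed, whose total averaged 1 FPKM or more and was above 0 in every tumour, and whose mean share lay over 1% and under 99%. The same start led in all 6 tumours in 6 of the 10 genes, and the exceptions were EZH1, RBBP4, JARID2 and MTF2. Intervals were wide: the half-width of the 95% interval had a median of 13.0 percentage points for the exons and introns and 20.7 for the start sites, and 0.50 on the log2 scale for the 10 loci. For EZH2, a log2 difference of 1 in either direction lies outside the interval.

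**Figure D4:**
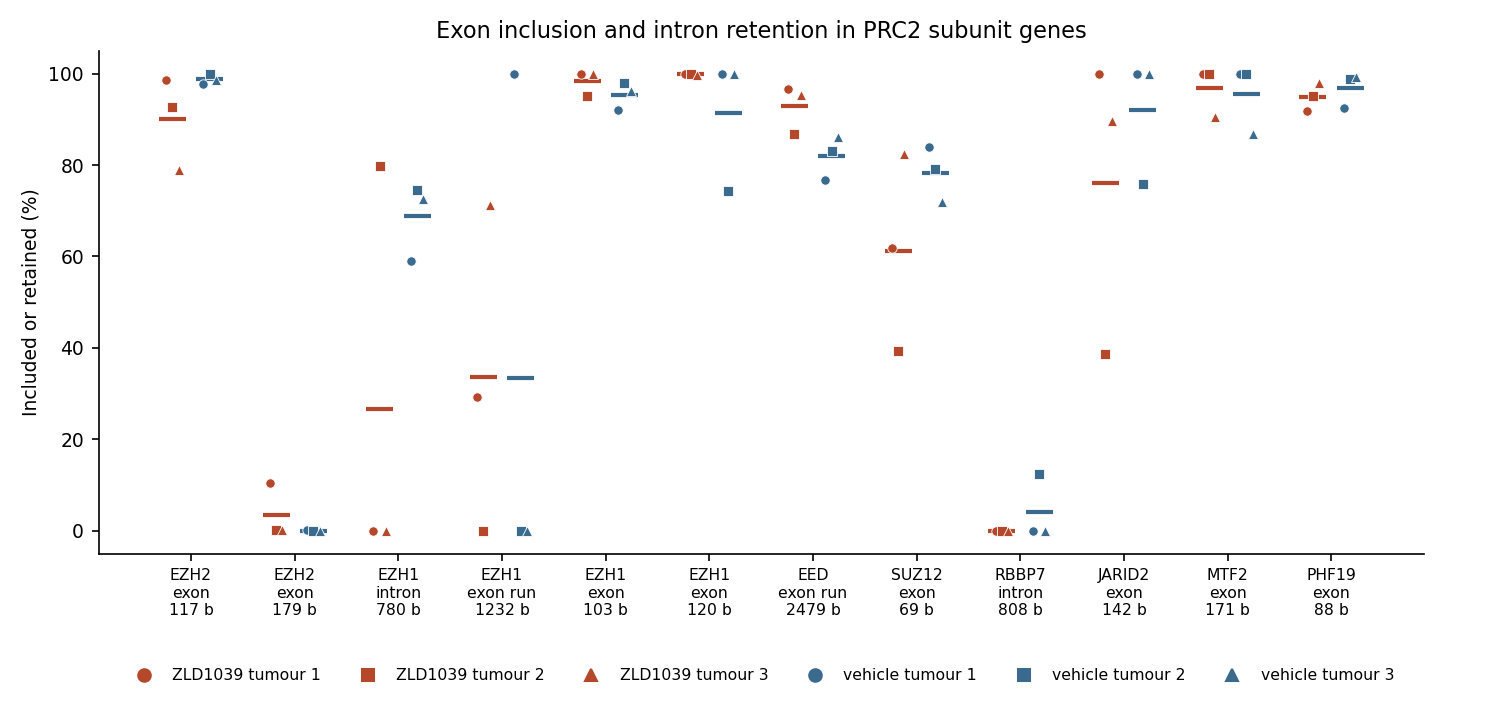
Inclusion of exons and exon runs, or retention of introns, in percent, for the 12 tested in PRC2 genes, labelled by gene, kind and length in bases (for runs, the span from the first to the last exon). Symbols are single tumours (ZLD1039 red, vehicle blue) and bars are group means (n = 3 per group). The EED exon run alone has groups apart, and the SUZ12 exon spans 39.3 to 82.4% within the ZLD1039 group.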

How the data were processed

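For each of the 6 tumours the authors deposited 1 table of events, whose values are FPKM per the file headers. The submitters' processing notes list HTSeq 0.6.1, the build mm10 (mouse) and bcl2fastq 2.17.1.14, with no role. The positions contradict mm10: chromosome numbers reach 22, and their names are those of the human genome, GRCh37 by background knowledge. Event positions are given as in the files. The span printed for a gene runs from the lowest to the highest position among its listed events, so the gene can extend beyond it. Not given in the sources used here are the aligner, the assembler and the tool behind the events. Bead-purified mRNA was used, per the labels' protocols, and libraries were made with a SMARTer kit.

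Events were matched between tumours by their identifier, and an unlisted event was given 0. Symbols follow the list that defined the 10 genes. The reference tables were of mouse and matched 0 of 14202 identifiers, so further PRC2 partners, histone demethylases and cell type markers were not analysed here. Members, lists and tests were chosen with earlier results of these data known.

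Limma 3.58.1 in R 4.3.3 was run on log2(FPKM + 1), with a trend of variance on mean, for every locus and event whose mean reached 1 FPKM in a group. Adjustment was by Benjamini-Hochberg over all features, with a threshold of 0.05. A fold change on this scale understates the change of low values. Inclusion was the FPKM with an exon or intron over that with and without it, and the share of a start or end was taken of all starts or all ends of its gene. Shares, in percent, were tested where the total was above 0 in every tumour and averaged 1 FPKM or more, and the mean share lay over 1% and under 99%. Depth is unknown, and no count model was used. The fits were checked on simulated data. Named for each gene were its leading start and end, the exon and intron of largest total among those tested, and the event of smallest p. Other events were named after their values were seen. Alternatives were other pseudocounts, minimums, scalings, locus forms, no trend, a replicate block and 1 tumour left out.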

Additional observations from a re-analysis of the deposited data

How the results depend on the processing

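No setting called any of the 10 genes, or any of their events, exons, introns or sites, with limma. The sign of the log2 difference was kept at EZH2, EED, SUZ12, RBBP4, RBBP7, MTF2 and PHF19 in every setting run. With 1 tumour left out it ranged from -0.42 to 0.36 for EZH1 and from -0.18 to 0.075 for JARID2. With summed end events it was 0.56 for AEBP2, against -0.40 in the main form. With summed start events the log2 ratio of PHF19 to MTF2 differed by -0.48 between the groups, against -0.19 in the main form. The cause was not tested. Summed ends gave no value for EZH2, which lists none, nor for EZH1, whose ends lie below the minimum. The groups share replicate numbers 1 to 3. Deviations of same-numbered tumours correlated at -0.03, 0.02 and -0.06, within the range of differently numbered pairs, -0.06 to 0.11. No pairing by number was seen, but with 3 tumours per group the correlations cannot exclude one. With the replicate block 0 of the 10 genes were called, as without it, and over all loci 0 were called, against 2 without the block. Depth is unknown, and what it limits cannot be stated. The intervals reflect the spread between tumours and are not adjusted over loci.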
